A study of Mus musculus with 10 samples.

Results

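The genes described here are 10 of the 23510 rows of a gene table: 6 glutathione transferases (Gstm1, Gstm2, Gstm5, Gsta4, Gstt1 and Gstp1) and 4 widely used target genes of the transcription factor NRF2 (Nqo1, Hmox1, Txnrd1 and Gclm). They were chosen by symbol, with results of the treatment comparison already known, so their differences between the groups are given as a description. The RNA came from lymphatic endothelial cells (LEC), which form the wall of lymphatic vessels, isolated by fluorescence-activated sorting from tumours of the MT-ret line. Fragments of this mouse melanoma had been implanted on the flank of 10 C57BL/6N mice, and every mouse therefore carried the tumour. Of these, 5 mice had received control IgG and 5 an antibody against angiopoietin-2 (anti-Ang2), by intraperitoneal injection, and all were killed 12 hours later. Each mouse gave 1 library (n = 5 per group), made from 0.5 ng of total RNA after cDNA amplification, and the age of the mice is not given in the sources used here. The question put by the series was how tumour LEC respond to acute inhibition of Ang2, a ligand of the endothelial receptor Tie2.

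Glutathione transferases join the tripeptide glutathione to reactive, electrophilic compounds and so make them easier to export. NRF2, encoded by Nfe2l2, is held by KEAP1 for degradation in unstressed cells. When electrophiles or oxidants modify KEAP1, NRF2 accumulates and binds antioxidant response elements near genes that make glutathione, reduce thioredoxin, reduce quinones and break down haem. In endothelium these genes are known for protecting cells against oxidative stress.

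Library totals ran from 38090933 to 83850341 counts, with 19201 to 21215 genes detected per library. All 10 LEC markers listed for the check of the cell type were detected, and their summed level was 20880 ± 1505 CPM (counts scaled to library size by the TMM method) in the IgG group and 18810 ± 1977 CPM after anti-Ang2 (mean ± SD, n = 5). For that sum the two-sided exact permutation p was 0.111 (0.216 adjusted over the 8 marker lists). Lyve1 and Reln had higher means after anti-Ang2 and the others lower ones. Ccl21a (883 and 379 CPM, edgeR adjusted p = 0.00447) and Tie1 (1519 and 1067 CPM, 0.014) were themselves called lower. Markers of melanoma cells, 12 of 12 tested, summed to between 399 and 2629 CPM in the IgG group and between 1654 and 8059 CPM after anti-Ang2. Anti-Ang2 1, 2 and 3 had the highest melanoma sums, and anti-Ang2 4 and 5 had the lowest quality weights (0.606 and 0.417, the others 0.911 to 1.43). Markers of blood endothelial cells, 10 of 10 tested, summed to 4948 ± 914 CPM for IgG and 3376 ± 1037 CPM for anti-Ang2 (two-sided exact permutation p = 0.0397, 0.159 adjusted over the 8 marker lists). Most of that sum was Plvap, at 4022 and 2216 CPM. Flt1, Emcn, Esm1, Apln, Nrp1 and Sox17 had higher means after anti-Ang2, and Cd34, Aplnr and Vwf lower ones, so the lower sum does not hold across the list. For fibroblasts and pericytes, the markers, 11 of 12 tested, summed to 409.9 ± 198 and 594 ± 253 CPM (exact p = 0.278, 0.371 adjusted). Dcn (144.2 and 331.8 CPM), Cspg4 (53.2 and 172.4 CPM), Acta2 and Lum had higher means after anti-Ang2. All other markers of that list had lower means, among them Col1a1 (91.9 and 22.65 CPM) and Col1a2 (67.5 and 12.9 CPM), so the higher sum does not hold across the list. The part of these cells in the members' differences was not tested. Markers of lymphocytes, erythroid cells and keratinocytes summed to at most 12.1 CPM in any library. In bulk RNA of this kind, fewer cells of a type and less RNA per cell cannot be told apart.

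The 10 genes did not move as a group. Gstm1 and Gstp1 were about 2-fold higher after anti-Ang2 (1.99-fold and 2.12-fold), while Nqo1, a classical NRF2 target, was 2.06-fold lower. For these 3 genes the libraries of the 2 groups did not overlap, and they were the members called at an adjusted p under 0.05 by edgeR over the 16240 genes tested (2 higher, 1 lower). All 10 members passed the filter on low counts. Across all tested genes 4.13% were called (1.34% higher, 2.8% lower) and 6.1% had groups that did not overlap (2.34% higher, 3.76% lower). Because the members were chosen with this contrast known, nothing is read from the 3 calls against those shares. The other 7 members had overlapping groups, and their adjusted p ran from 0.180 to 0.947. The median log2 fold change of the 10 members was 0.32, that of all tested genes 0.01.

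**Figure D1:**
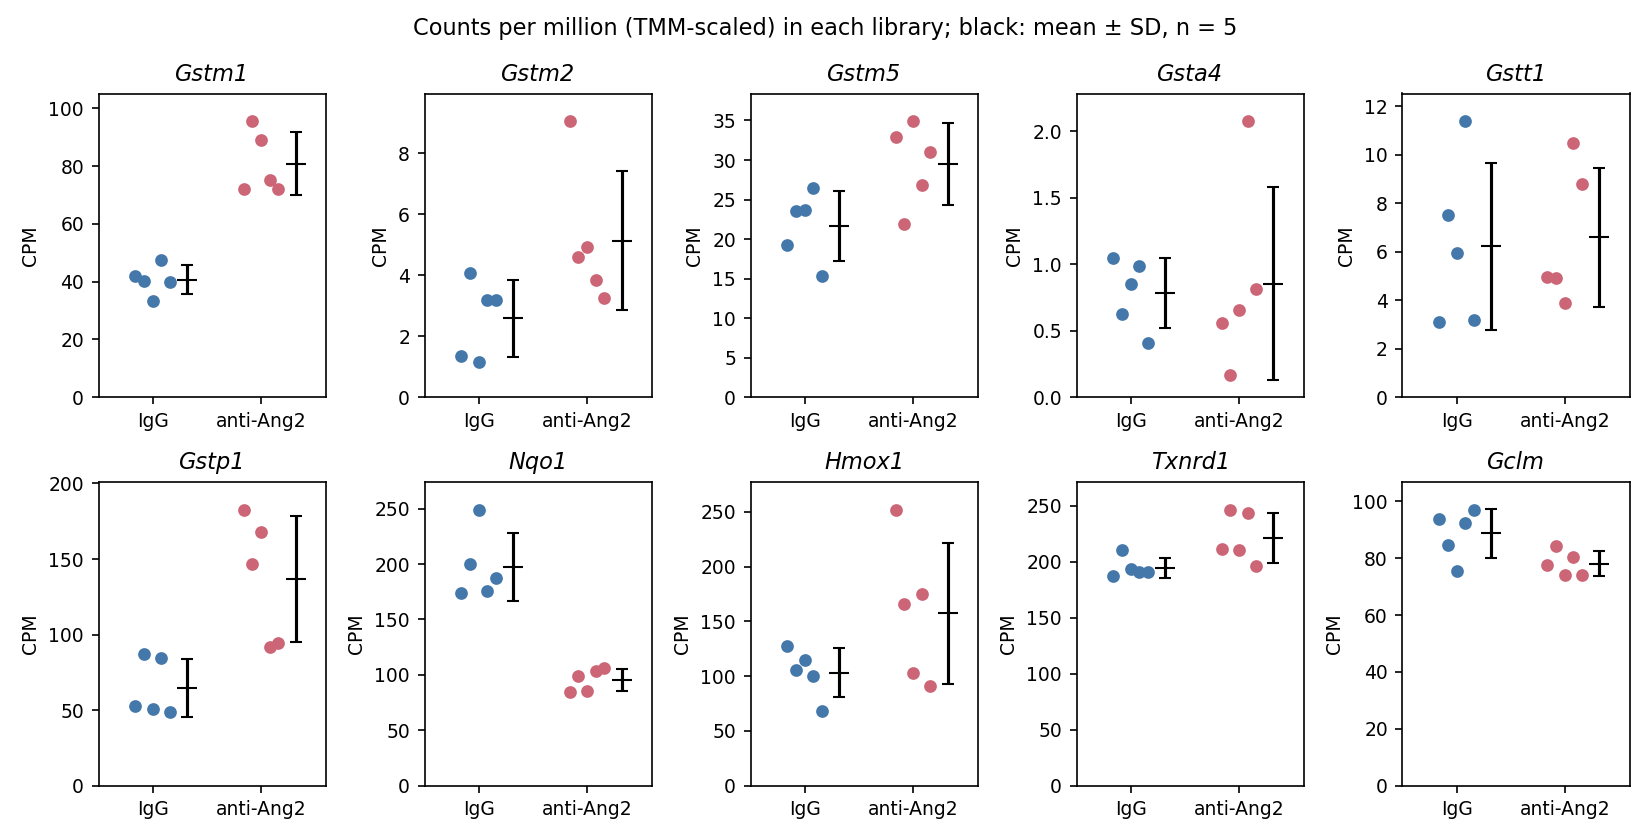
CPM of the 10 members, 1 panel per gene with its own axis from 0; each point is 1 library (IgG blue, anti-Ang2 red), and the black bar is the mean ± SD of 5 libraries. Gstm1 and Gstp1 lie higher in every anti-Ang2 library than in any IgG library, Nqo1 lies lower, and the other 7 genes overlap.

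The mu class transferases Gstm1, Gstm2 and Gstm5 lie in 1 gene cluster on chromosome 3 and share much of their sequence, which bears on how reads could be assigned among them. In the mm10 genome Gstm1 (ENSMUSG00000058135.12) spans chr3:108012255-108017973 on the minus strand, Gstm2 chr3:107981702-107986453 on the minus strand and Gstm5 chr3:107895821-107898686 on the plus strand. Over the coding sequence of 657 bases, Gstm1 and Gstm2 were 86.0% identical, with a longest shared run of 60 bases. Gstm5, with 675 coding bases, was 69.5% identical to Gstm1 and shared no run longer than 16 bases with it. Below are the first 90 coding bases of Gstm1 and the stretches aligned to them in the other 2 genes, 5′ to 3′, from the GENCODE M21 transcripts. They are shown because they make visible how far each gene can be told apart by a read, and capitals mark the bases that differ from Gstm1 or are inserted relative to it (15 substituted in Gstm2, 22 substituted and 9 inserted in Gstm5). Each stretch runs over more than 1 exon, from chr3:108017775 to 108017373 for Gstm1, from chr3:107986393 to 107986056 for Gstm2 and from chr3:107895954 to 107896351 for Gstm5.
Gstm1: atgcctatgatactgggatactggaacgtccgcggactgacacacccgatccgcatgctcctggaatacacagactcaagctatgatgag
Gstm2: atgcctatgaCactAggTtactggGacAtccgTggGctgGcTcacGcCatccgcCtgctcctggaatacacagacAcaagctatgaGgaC
Gstm5: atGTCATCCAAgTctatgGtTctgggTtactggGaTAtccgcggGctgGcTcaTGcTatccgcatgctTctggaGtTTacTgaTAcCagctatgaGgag

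Gstm1 stood at 42.1, 40.2, 33.5, 47.5 and 40.0 CPM in IgG 1 to 5 and at 72.3, 95.6, 89.1, 75.3 and 72.0 CPM in anti-Ang2 1 to 5. Every anti-Ang2 library lay above every IgG library, and the gap between the groups was wider than the range within IgG. The means were 40.6 ± 5.02 and 80.8 ± 10.8 CPM (SD, n = 5), a log2 fold change of 0.99 ± 0.11 (SE; edgeR adjusted p = 0.00111). Gstm1 passed in each of the 19 other analyses run on it. It was at 0.78 ± 0.14 with the melanoma marker sum as a covariate (edgeR adjusted p = 0.0431) and at 0.85 ± 0.13 without anti-Ang2 1, 2 and 3 (0.0374). Of the distinct stretches of 50 bases in its transcripts, 18.9% also occurred in another gene, among them Gstm3 and Gstm2-ps1, and 5.86% of those of 100 bases did. The read length and the handling of reads with several matches are not given in the sources used here.

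Gstm2 was a low gene, with 48 to 469 counts per library. It stood at 1.34, 4.06, 1.17, 3.17 and 3.17 CPM in IgG and at 9.05, 4.60, 4.92, 3.83 and 3.27 CPM in anti-Ang2. Anti-Ang2 1 lay far above all others, and the lower anti-Ang2 libraries overlapped the upper IgG libraries. Its log2 fold change, 0.99 ± 0.41, was as large as that of Gstm1 but did not pass (edgeR adjusted p = 0.223). With the melanoma marker sum as a covariate it was -0.024 ± 0.39.

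Gstm5 stood at 19.2, 23.6, 23.6, 26.4 and 15.3 CPM in IgG and at 32.9, 21.9, 34.9, 26.9 and 31.0 CPM in anti-Ang2. Only anti-Ang2 2 lay within the IgG range. The means were 21.6 ± 4.37 and 29.5 ± 5.20 CPM (log2 fold change 0.45 ± 0.17, edgeR adjusted p = 0.180), which did not pass. Shared stretches of 50 bases, 9.44% of its own, were with 4933431E20Rik alone.

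When the 6 rows of the Gstm1 to Gstm7 family in the table were summed, so that shifts of reads among these rows do not count, the groups still did not overlap. The sum was 73.0, 77.9, 70.0, 91.9 and 68.1 CPM in IgG and 127, 131, 139.7, 116 and 121 CPM in anti-Ang2. Its log2 fold change was 0.74 ± 0.09. Gstm1 made up 47.8% to 72.8% of the sum, and Gstm4, a family member outside the 10 genes, stood at 8.55 CPM with IgG and 7.45 CPM with anti-Ang2. Gstm3 had no row under that symbol in the gene table. Its coding sequence was 89.5% identical to that of Gstm1, with a longest shared run of 112 bases, and the sum does not cover reads shared with it.

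Gstp1, the pi class transferase, is expressed in many tissues and tumours. Its gene (ENSMUSG00000060803.6 in GENCODE M21) spans chr19:4035407-4037985 on the minus strand. It stood at 52.4, 86.8, 50.4, 84.3 and 49.0 CPM in IgG and at 183, 147, 168, 92.0 and 94.5 CPM in anti-Ang2. Within each group the libraries fell into a lower and an upper set: IgG 2 and 4 were above the other IgG libraries, and anti-Ang2 1, 2 and 3 above anti-Ang2 4 and 5. The distance from the highest IgG library to the lowest anti-Ang2 library was small, 86.8 against 92.0 CPM. The means were 64.6 ± 19.2 and 137 ± 41.7 CPM (log2 fold change 1.08 ± 0.24, edgeR adjusted p = 0.0302).

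The call of Gstp1 was lost in 10 of 19 other analyses. Leaving out IgG 1, 3 or 5 or anti-Ang2 1, 2 or 3 gave edgeR adjusted p of 0.0646, 0.0914, 0.0774, 0.0713, 0.0654 and 0.0783, in that order, at log2 fold changes of 0.96 to 1.06. Without anti-Ang2 1, 2 and 3 together the log2 fold change was 0.52 ± 0.25 (0.339), and without anti-Ang2 4 and 5 it was 1.35 ± 0.21 (0.00917). The near copy Gstp2 was 98.1% identical in its coding sequence, with a shared run of 303 bases, and 33.7% of the stretches of 50 bases in Gstp1 also occurred in Gstp2 or Gstp-ps. Gstp1 held 94% to 96.5% of the summed counts of the Gstp rows in every library, and that sum had a log2 fold change of 1.07 ± 0.24.

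Gsta4, an alpha class enzyme that conjugates aldehydes formed by lipid peroxidation (chr9:78182774-78209349, plus strand), was barely detected. It had 8 to 109 counts per library, or 1.05, 0.628, 0.851, 0.985 and 0.409 CPM in IgG and 0.560, 0.166, 0.653, 2.08 and 0.817 CPM in anti-Ang2. The highest and the lowest library were both anti-Ang2, and the groups overlapped throughout. Its log2 fold change was 0.13 ± 0.59 (edgeR adjusted p = 0.945), an estimate smaller than its SE.

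Gstt1, of the theta class, which acts on small halogenated compounds among others (chr10:75783813-75798584, minus strand), stood at 3.11, 7.50, 5.95, 11.4 and 3.17 CPM in IgG and at 4.94, 4.93, 3.88, 10.5 and 8.78 CPM in anti-Ang2. Both groups covered nearly the same range, and the spread within them was large. Its log2 fold change was 0.08 ± 0.41 (edgeR adjusted p = 0.947), and its sign depended on the libraries used.

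Nqo1 reduces quinones to hydroquinones and is widely used as a reporter of NRF2 activity. Its gene (ENSMUSG00000003849.8) spans chr8:107388225-107403206 on the minus strand. It stood at 174, 200.3, 249, 176 and 187 CPM in IgG and at 84.7, 98.8, 85.0, 103 and 106 CPM in anti-Ang2. Every anti-Ang2 library lay far below every IgG library, with IgG 3 the highest of all. The means were 197 ± 30.8 and 95.6 ± 10.1 CPM, a log2 fold change of -1.05 ± 0.11 (edgeR adjusted p = 0.00100). Nqo1 passed in all 20 other analyses, at log2 fold changes from -1.15 to -0.83. No stretch of 50 bases in its transcripts occurred in another gene.

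Hmox1, the inducible haem oxygenase, splits haem into biliverdin, carbon monoxide and iron (chr8:75093621-75100589, plus strand). It stood at 128, 106, 114, 100.2 and 68.1 CPM in IgG and at 252, 166, 103, 175 and 91.2 CPM in anti-Ang2. Anti-Ang2 1, 2 and 4 lay above all IgG libraries, and anti-Ang2 3 and 5 lay among them. The means, 103 ± 22.3 and 157 ± 64.6 CPM, differed by a log2 fold change of 0.61 ± 0.26 that did not pass (edgeR adjusted p = 0.245).

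Txnrd1, the cytosolic thioredoxin reductase (chr10:82833951-82897712, plus strand), was the steadiest of the higher genes, at 188, 211, 194, 191 and 191 CPM in IgG and 211, 247, 211, 243 and 196 CPM in anti-Ang2. Only IgG 2 reached the anti-Ang2 range. Its log2 fold change was 0.19 ± 0.08 (edgeR adjusted p = 0.242). Gclm, the modifier subunit of the enzyme that starts glutathione synthesis (chr3:122245557-122270732, plus strand), stood at 93.6, 84.7, 75.6, 92.6 and 97.1 CPM in IgG and 77.5, 84.2, 74.3, 80.5 and 74.2 CPM in anti-Ang2. Only IgG 3 reached the anti-Ang2 range, and the log2 fold change was -0.18 ± 0.08 (0.259). Neither gene passed, and their SE were the smallest of the 10 members.

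DESeq2 also called 2 members higher and 1 lower (5.46% and 5.94% of the genes it tested), and so did the authors' deposited table (4.25% and 4.83%), Gstm1, Gstp1 and Nqo1 in each. The authors' deposited table gave log2 fold changes of 0.97 for Gstm1 (adjusted p 3.82e-13), 0.98 for Gstp1 (0.000325) and -1.01 for Nqo1 (1.93e-14). For Gstm2 the authors' deposited table gave 0.42 (0.117) and for Hmox1 0.37 (0.137), smaller than the estimates above.

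Levels can be set between genes only per exon length, as in the deposited FPKM values (fragments per exon length and library size). In IgG libraries Nqo1 was the highest member at 130.5 ± 19.5 FPKM (97.9th percentile of the tested genes), followed by Gstp1 at 87.9 ± 26.8, Hmox1 at 60.9 ± 14.2, Txnrd1 at 58.6 ± 2.75 and Gstm1 at 28.4 ± 3.95 FPKM. Gstm5 at 17.5 ± 3.73 and Gclm at 14.5 ± 1.46 FPKM came next. Gstt1 at 4.21 ± 2.38, Gstm2 at 1.58 ± 0.764 and Gsta4 at 0.641 ± 0.228 FPKM (22.5th percentile) were the lowest. Ranges of IgG libraries overlapped between Gstp1 and Hmox1, Hmox1 and Txnrd1, Gstm5 and Gclm, Gstt1 and Gstm2, and Gstm2 and Gsta4, so the order within these pairs is not separated by the spread. Nqo1 was above Gstp1 in each of the 5 IgG libraries (118.5 to 164 against 64.0 to 117 FPKM). After anti-Ang2 the order was the opposite in each of the 5 libraries, with Gstp1 at 131 to 253 FPKM and Nqo1 at 56.9 to 73.2 FPKM. Gstm1, at 51.4 to 63.8 FPKM, then overlapped Nqo1.

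**Figure D2:**
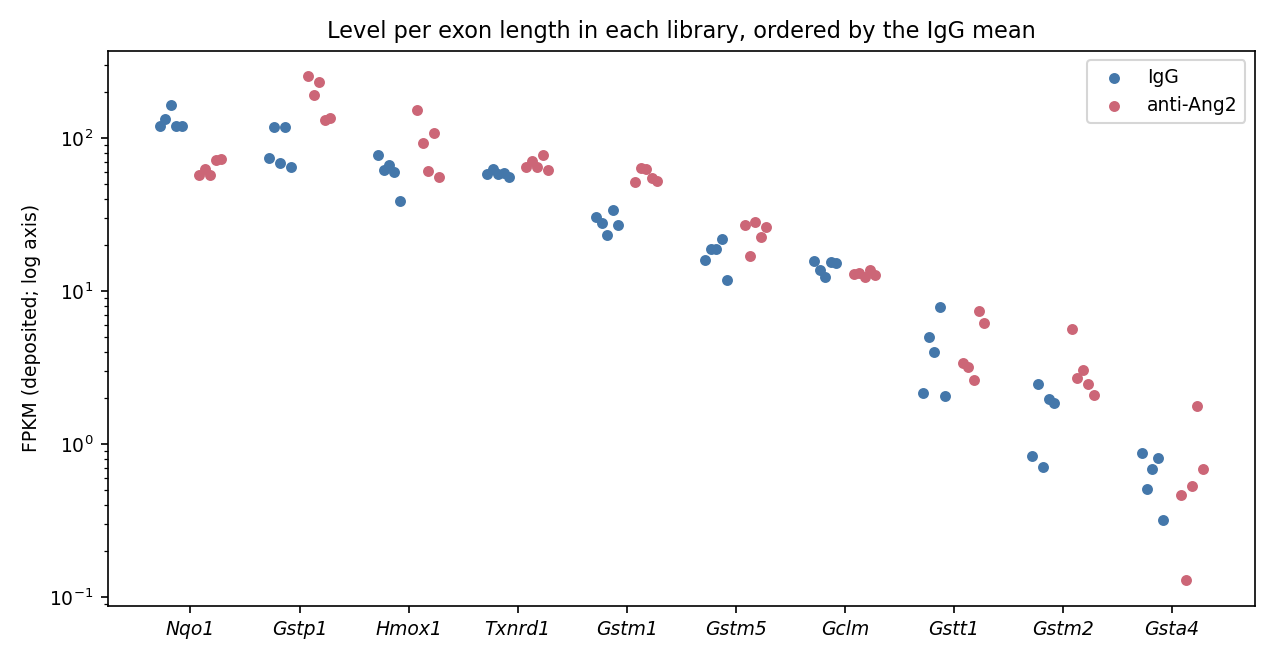
Deposited FPKM of the 10 members on a log axis, ordered by the mean of the IgG libraries; each point is 1 library (IgG blue, anti-Ang2 red). Nqo1 lies above Gstp1 in IgG and below it after anti-Ang2, and Gsta4 and Gstm2 lie near or below 5.66 FPKM throughout.

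Markers of melanoma cells moved with some members. The summed level of the 12 markers was 650.2, 2461, 399, 2629 and 864 CPM in IgG and 8059, 5970.0, 6877, 2574 and 1654 CPM in anti-Ang2 (two-sided exact permutation p = 0.0397, 0.159 after Benjamini-Hochberg adjustment over 8 marker lists). Each of the 12 markers had a higher mean after anti-Ang2, among them Dct (640 and 2113 CPM), Gpnmb (418 and 1621 CPM) and Tyrp1 (109 and 449.7 CPM), and none was at 0 in any library. Gstp1 was highest in the same 3 libraries as the melanoma sum, anti-Ang2 1, 3 and 2, in the same order. Within IgG, Gstp1 was higher in IgG 2 and 4, the IgG libraries of highest melanoma sum. At like melanoma sums, IgG 2, IgG 4 and anti-Ang2 4 had Gstp1 at 86.8, 84.3 and 92.0 CPM. Anti-Ang2 5, with a melanoma sum of 1654 CPM, below those of IgG 2 and 4, had Gstp1 at 94.5 CPM. With this sum as a covariate the log2 fold change of Gstp1 was 0.33 ± 0.15 (edgeR adjusted p = 0.363). The part of melanoma RNA in the difference of Gstp1 was not tested.

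Gstm1 and Nqo1 could be compared between the groups at like melanoma sums only through anti-Ang2 4. At those sums, IgG 2, IgG 4 and anti-Ang2 4 had Gstm1 at 40.2, 47.5 and 75.3 CPM and Nqo1 at 200.3, 176 and 103 CPM. Anti-Ang2 5, with a melanoma sum below that of IgG 2 and 4, had Gstm1 at 72.0 and Nqo1 at 106 CPM. Anti-Ang2 4 and 5 are the libraries of lowest quality weight. With the melanoma covariate Gstm1 went from 0.99 to 0.78 ± 0.14 (edgeR adjusted p = 0.0431) and Nqo1 from -1.05 to -0.83 ± 0.13 (0.0287). The part of melanoma RNA in the differences of Gstm1 and Nqo1 was not tested.

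Macrophages are known for high haem oxygenase when they take up red cells. The summed level of 15 macrophage and monocyte markers was 208, 51.5, 77.2, 82.3 and 56.3 CPM in IgG and 249.5, 107, 279.7, 171 and 73.0 CPM in anti-Ang2 (two-sided exact permutation p = 0.135, 0.216 adjusted over the 8 lists). Of the 15 markers 12 were tested, and the defining marker Adgre1 was between 0 and 4.58 CPM. Mrc1 made up 40.0 CPM of the IgG mean sum of 95.1 CPM and stood at 35.45 CPM after anti-Ang2. Every other listed marker had a higher mean after anti-Ang2. Hmox1 was highest in anti-Ang2 1, which had the second highest macrophage sum, and anti-Ang2 3, with the highest macrophage sum, had Hmox1 at 103 CPM, within the IgG range. The part of macrophage RNA in the values of Hmox1 was not tested. With the macrophage sum as a covariate the log2 fold change of Hmox1 was 0.32 ± 0.29 (edgeR adjusted p = 0.730), that of Gstm1 0.97 ± 0.14 (0.0150) and that of Nqo1 -0.93 ± 0.12 (0.0119). Gstp1 did not pass in that fit (0.97 ± 0.32, 0.221).

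**Figure D3:**
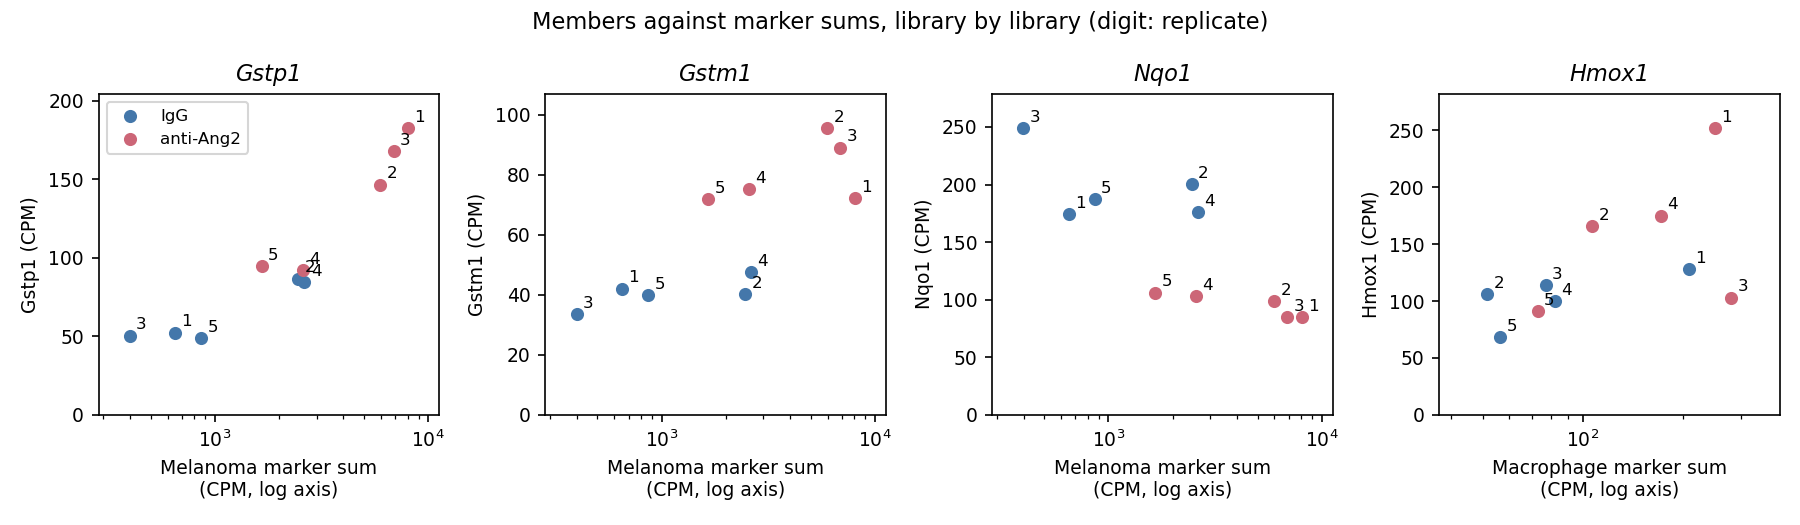
Level of 4 members (CPM, axis from 0) against the summed level of melanoma or macrophage markers (CPM, log axis) in each library; the digit is the replicate, IgG blue and anti-Ang2 red. Gstp1 is higher in the libraries of high melanoma sum in both groups. For Gstm1 and Nqo1, only anti-Ang2 4, a library of low quality weight, can be compared with IgG libraries at like melanoma sums. That library lies above those IgG libraries in Gstm1 and below them in Nqo1. The part of melanoma RNA in the group differences of Gstp1, Gstm1 and Nqo1 was not tested.

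**Figure D4:**
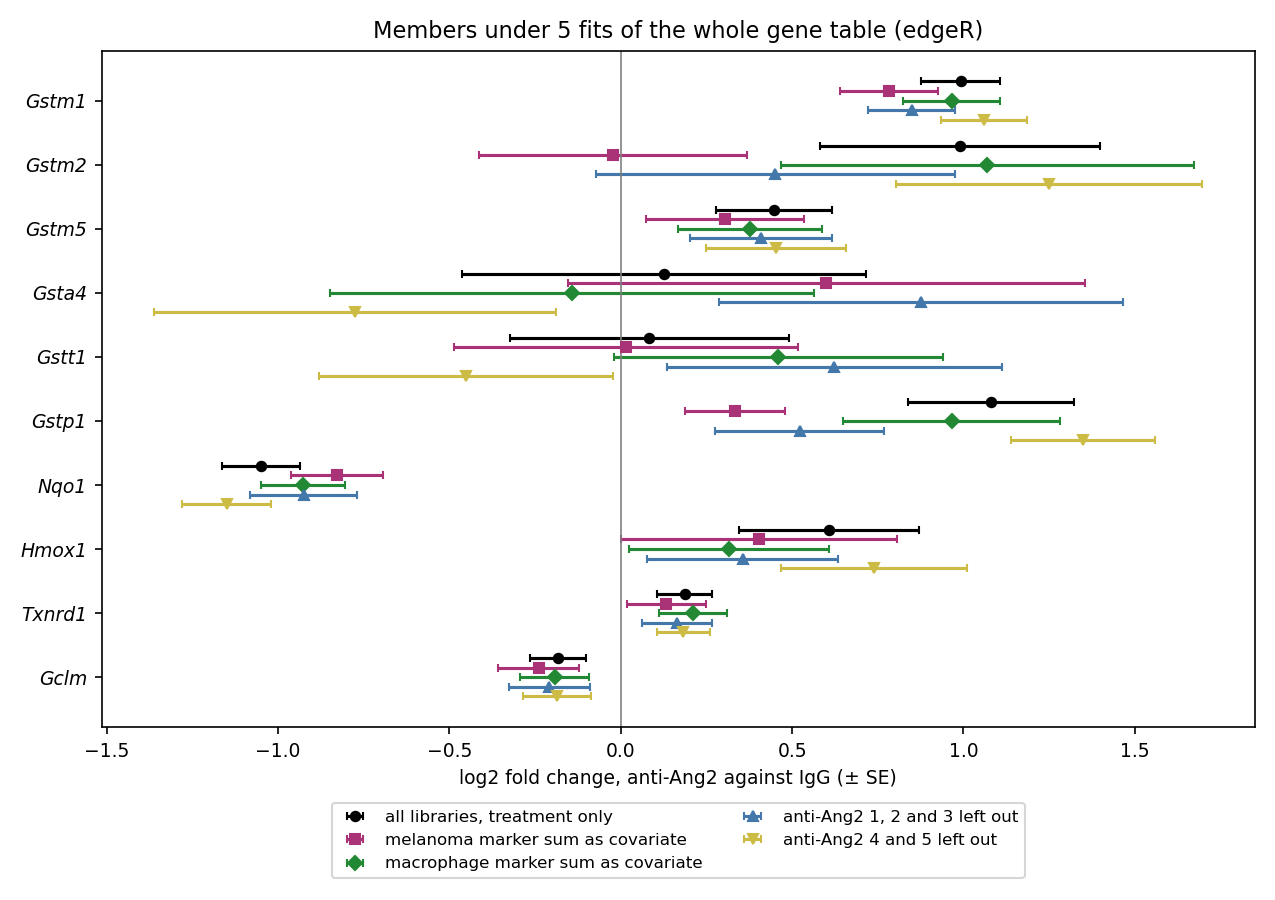
Log2 fold change ± SE of each member in 5 edgeR fits of the whole gene table: all libraries, a marker sum as covariate, or libraries left out. Gstm1 lies between 0.78 and 1.06 and Nqo1 between -1.15 and -0.83, each nearest to 0 with the melanoma covariate. Gstp1 lies at 0.33 with the melanoma covariate and at 0.52 without anti-Ang2 1, 2 and 3.

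The pathway around the members was described with 7 lists, 104 genes in all, of which 94 were tested and 4 were called (1 higher, 3 lower). That is 4.26%, close to the 4.13% of all tested genes, so the count is no result about these lists. For the counts at an unadjusted p under 0.05 given below, the share of all tested genes was 18.2% (9.14% higher, 9.1% lower). Limma-voom called 4.13% of them higher and 4.8% lower, and the shares of DESeq2 are given above. Among 15 tested other glutathione transferases 0 were called by edgeR (3 at an unadjusted p under 0.05, all higher; DESeq2 called 3 higher and limma-voom 2 higher), and the median log2 fold change was 0.23. Those of highest mean CPM over all libraries, which is not a level per length, were the microsomal Mgst1, at 53.1 and 62.2 CPM in IgG and anti-Ang2, and the omega class Gsto1, at 29.0 and 37.6 CPM (0.38 ± 0.12, edgeR adjusted p = 0.123). Of the listed transferases Gsta1, Gsta2, Gsta3, Gstp3 and Gstt4 were too low to be tested, each at most 0.205 CPM on average.

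In glutathione synthesis, transport and turnover, 1 of 13 tested genes rose and 1 fell by edgeR, and the median log2 fold change was -0.02. At an unadjusted p under 0.05, 1 was higher and 4 were lower, and DESeq2 and limma-voom each called 1 higher and 2 lower. Oplah, not called, was lower with groups that did not overlap (49.2 and 37.3 CPM, edgeR adjusted p = 0.0599), and was singled out after its values were seen. Such groups were found, on the lower side, in 3.76% of all tested genes. The genes called by edgeR, Chac1 and Ggct, are enzymes of glutathione breakdown that act on gamma-glutamyl peptides. Chac1, which cleaves glutathione itself, rose from 2.73 ± 0.362 to 5.36 ± 1.52 CPM (0.97 ± 0.24, edgeR adjusted p = 0.0490). Ggct, the gamma-glutamylcyclotransferase, fell from 58.5 ± 16.9 to 33.3 ± 4.47 CPM (-0.81 ± 0.18, edgeR adjusted p = 0.0318). In both genes the groups did not overlap: Chac1 was at most 3.17 CPM in IgG and at least 3.75 CPM in anti-Ang2, and Ggct at least 40.8 and at most 38.3 CPM. Chac1 lost its call without any single library except anti-Ang2 5 (edgeR adjusted p up to 0.125), and Ggct in the absence of IgG 1, 3, 4 or of anti-Ang2 1, 2, 3, 4 (0.0516 to 0.0885). The mean melanoma sum was 1401 CPM for IgG and 5027 CPM for anti-Ang2, and with it as a covariate they were at 0.71 (0.433) and -0.38 (0.437). Gclc, the catalytic partner of Gclm, stood at 71.6 ± 10.5 and 58.9 ± 8.61 CPM (-0.28 ± 0.12, edgeR adjusted p = 0.253) and was picked out as that partner after its values were seen.

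Of 9 tested glutathione peroxidases and glutaredoxins 0 were called by edgeR (4 at an unadjusted p under 0.05, all higher; 3 by DESeq2, 1 by limma-voom), with a median of 0.19. Gpx1, the main cytosolic peroxidase, stood at 564 ± 55.7 and 708 ± 70.4 CPM (0.33 ± 0.09, edgeR adjusted p = 0.0790). The secreted Gpx3 stood at 158 ± 98.2 and 301 ± 57.2 CPM (0.93 ± 0.34, 0.164), with IgG 1 at 317 CPM above most anti-Ang2 libraries. Gpx4, not called, was higher with groups that did not overlap (36.4 and 44.9 CPM, edgeR adjusted p = 0.106), and was singled out after its values were seen. Groups of this kind were found, on the higher side, in 2.34% of all tested genes. Of 12 tested genes of the thioredoxin and peroxiredoxin system, the partners of Txnrd1, 0 were called by edgeR (2 higher and 1 lower at an unadjusted p under 0.05; DESeq2 called 1 higher and 1 lower, limma-voom 1 lower), with a median of 0.06. Txnip, an inhibitor of thioredoxin, stood at 807 ± 140 and 567 ± 137 CPM (-0.51 ± 0.17, edgeR adjusted p = 0.123), and Prdx1 at 371 ± 16.5 and 392 ± 20.3 CPM (0.08 ± 0.07, 0.600).

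Among 27 tested other NRF2 targets, 2 fell and 0 rose by edgeR. At an unadjusted p under 0.05, 6 were higher and 3 lower, and the median log2 fold change was 0.14. A positive log2 fold change was found in 21 of them, and in 8439 of all 16240 tested genes. Because the list was chosen with earlier results known, nothing is read from that count. DESeq2 called 0 higher and 2 lower, and limma-voom 1 higher and 2 lower. Ephx1, a microsomal epoxide hydrolase, fell from 154 ± 44.8 to 89.2 ± 14.9 CPM (-0.79 ± 0.19, edgeR adjusted p = 0.0418). Pir, the nuclear protein pirin, fell from 30.6 ± 6.58 to 18.8 ± 3.40 CPM (-0.71 ± 0.18, edgeR adjusted p = 0.0488). The libraries of Ephx1 and Pir overlapped through IgG 4, at 104 and 20.5 CPM. With the melanoma marker sum as a covariate Ephx1 was at -0.58 (edgeR adjusted p = 0.409) and Pir at -0.32 (0.551). Without 1 library Ephx1 kept its call in 3 of 10 cases (without IgG 1, IgG 4 or anti-Ang2 1) and Pir in 2 of 10 (without IgG 4 or anti-Ang2 5), the highest adjusted p being 0.112 and 0.125.

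Neither Nfe2l2 nor Keap1 passed. Nfe2l2 was at 228, 199, 222, 230.3 and 240.2 CPM in IgG and at 209, 240.4, 222, 223 and 259 CPM in anti-Ang2, with overlapping groups (0.04 ± 0.08, edgeR adjusted p = 0.843). Keap1 was at 77.2 ± 9.59 and 72.4 ± 8.92 CPM (-0.09 ± 0.11, 0.749). These are transcript levels, and NRF2 is regulated mainly as a protein. Of 16 tested genes for NRF2 and its regulators 0 were called by edgeR (2 higher and 2 lower at an unadjusted p under 0.05; DESeq2 called 1 higher and 1 lower, limma-voom 1 higher), with a median of 0.01. The small MAF protein Mafk, a partner of NRF2, stood at 137.5 ± 27.1 and 198 ± 32.8 CPM (0.53 ± 0.15, edgeR adjusted p = 0.0722). Btrc, a ubiquitin ligase subunit, stood at 37.8 ± 2.47 and 31.5 ± 2.28 CPM, with groups that did not overlap (-0.26 ± 0.08, 0.114). Both were singled out after their values were seen. Those of highest mean CPM, again not per length, were Sqstm1, the autophagy receptor that binds KEAP1, at 655 and 738 CPM, and the related factor Nfe2l1 at 376 and 316 CPM (-0.25 ± 0.09, edgeR adjusted p = 0.171).

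Of 15 tested genes of haem and iron handling, 0 were called by edgeR (2 at an unadjusted p under 0.05, both higher; DESeq2 called 2 higher and limma-voom 0), with a median of 0.12. The ferritin heavy chain Fth1 stood at 4930.0 ± 394 and 5214 ± 810 CPM (0.08 ± 0.11, edgeR adjusted p = 0.791) and the iron regulatory protein Aco1 at 98.5 and 104 CPM.

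**Figure D5:**
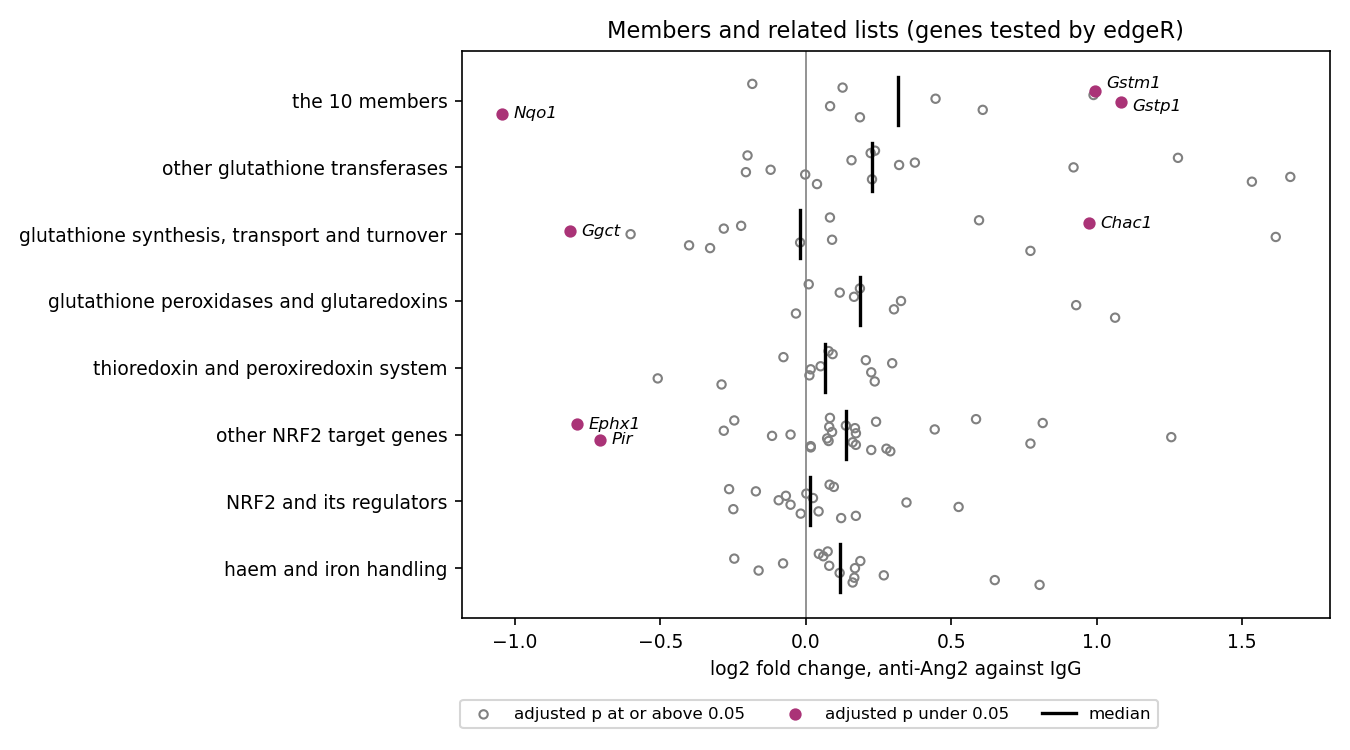
Log2 fold change of every tested gene in the 10 members and the 7 related lists (1 circle per gene, filled where the edgeR adjusted p was under 0.05, and a bar at the median). Called genes lie on both sides of 0, and the medians of the 7 lists run from -0.02 to 0.23.

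Promoter windows of 300 bases (250 before to 50 after each RefSeq start, GRCm38.p6) were matched for 8 of the 10 members, with 11 windows, and were searched on both strands for the core of the antioxidant response element, TGACNNNGC. It occurred in windows of Gstm5, Txnrd1 and Gclm, against 14.0% of all genes (12.4% of 32851 windows). The variant TGAGNNNGC, searched after the sequences had been seen, occurred in Gstm5, Gstt1 and Gstp1, against 19.8% of all genes (17.6% of all windows). A string cannot match both motifs on the same strand. In all, 5 of 8 members and 37 of 89 pathway genes (41.6%) held at least 1 of them, against 30.8% of all genes. Matches are descriptions of letters and not of binding. Below are the 3 matches to TGACNNNGC, 42 bases before the start in Gstm5 (chr3:107895802-107895830, plus strand), 92 in Txnrd1 (chr10:82859104-82859132, plus strand) and 134 in Gclm (chr3:122245413-122245441, plus strand). The fourth is the TGAGNNNGC match 74 bases before the start of Gstp1 (chr19:4037968-4037996, minus strand). Further TGAGNNNGC matches, 9 bases before the start in Gstp1, 89 in Gstt1 and 196 in Gstm5, are not printed. The sequences run 5′ to 3′ on the strand of the gene with the match in capitals, and show which strings members other than Gstm1 and Nqo1 hold.
Gstm5: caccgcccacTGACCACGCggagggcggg
Txnrd1: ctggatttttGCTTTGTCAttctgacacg
Gclm: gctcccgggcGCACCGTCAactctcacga
Gstp1: tccaacgtgtTGAGTCAGCatccggggcg

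Gstm1 and Nqo1, the members that separated the groups most firmly and in opposite directions, held neither string in their windows, which says only that these letters are not in these windows. The 250 bases before a start of each are given here 5′ to 3′ on the minus strand (RefSeq, GRCm38.p6), at chr3:108017974-108018223 for Gstm1 and chr8:107403206-107403455 for Nqo1, in lower case throughout since nothing matched. Gsta4 and Hmox1 had no entry.
Gstm1: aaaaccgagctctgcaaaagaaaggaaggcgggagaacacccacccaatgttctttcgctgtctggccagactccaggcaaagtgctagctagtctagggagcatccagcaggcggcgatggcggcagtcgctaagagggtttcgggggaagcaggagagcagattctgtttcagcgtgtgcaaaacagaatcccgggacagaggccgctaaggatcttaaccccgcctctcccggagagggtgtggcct
Nqo1: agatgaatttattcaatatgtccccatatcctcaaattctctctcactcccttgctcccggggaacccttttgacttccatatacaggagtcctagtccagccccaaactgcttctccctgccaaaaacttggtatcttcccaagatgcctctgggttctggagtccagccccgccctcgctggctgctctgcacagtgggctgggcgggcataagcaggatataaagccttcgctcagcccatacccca

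After the group means were subtracted, the genes whose log2 CPM followed Gstm1 most closely over the 10 libraries were Matk (Pearson r = 0.958), Fcer2a (0.954), Slc52a2 (0.925), Gm43292 (0.908) and 1700041G16Rik (0.904). These are given as a description, from libraries that share their depth across genes. Apart from Slc52a2, at 21.1 and 24.4 CPM, all were near or below 1.20 CPM. Of the other members Gclm (0.612) and Gstp1 (0.482) had the highest r with Gstm1, and Nqo1 the lowest (-0.584).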

How the data were processed

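Total RNA of sorted tumour LEC from 10 mice was sequenced, 1 library per mouse, and the treatment label gave the groups. The design text names independent biological replicates. STAR, featureCounts, DESeq2 and mm10 are named in the submitters' processing notes, without versions. Per the file headers, the authors deposited raw counts per gene, FPKM, values named TPM, a mean of scaled counts, log2 fold changes with their errors, and p-values. The counts as deposited were the input of every test. The deposited FPKM were used to set levels between genes. The values the authors deposited as TPM exceed in sum the total that defines TPM and were treated as a score, and neither they nor the deposited signal of mean scaled counts entered a result. Where a log2 fold change or p-value is that of the authors, the text says so. The table held 0 per-sample columns that were not mapped to a library. The cDNA kit does not mark the strand, so that reads of overlapping antisense genes cannot be told apart.

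Counts were tested with edgeR 4.0.16 in R 4.3.3 (two-sided quasi-likelihood F test on treatment alone, TMM scaling, and filterByExpr at a count of 10 and a total of 15). The p-values were adjusted over all 16240 genes tested (Benjamini-Hochberg), a gene was called under 0.05, and the SE was derived from the same test. CPM use the TMM factors of the tested genes, and log2 CPM a prior count of 2. The exact permutation test of marker sums, two-sided, ran over 252 arrangements (smallest p 0.00794). Other analyses used DESeq2 1.42.0 and limma-voom with quality weights (limma 3.58.1), RLE scaling, no filter, each library left out, marker sums as covariates, a replicate block, and summed Gstm and Gstp rows. Shared stretches and coding sequences came from GENCODE M21 and promoters from RefSeq. The edgeR fit was tested on simulated data. With 38090933 to 83850341 counts per library the spread between libraries exceeded counting error (lowest chi-square per degree of freedom between libraries 55.1 over 45 pairs).

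The members and lists were chosen with earlier results of these data known. All members were named with every library's value. Of each list every called gene was named, up to 6, or, where none was called, the 2 of highest mean CPM, and Nfe2l2 and Keap1 always. For Gstm1 the 5 genes of highest correlation were named.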

Additional observations from a re-analysis of the deposited data

Results flagged for a closer look

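Of 32 groups of 5 libraries checked for a library far from the others, 3 held one, where chance gives about 1 in 20. Gstm2 in anti-Ang2 1 was at 9.05 CPM, while the other 4 ranged from 3.27 to 4.92 CPM (gap over range 0.715, critical value 0.71). Without that library the log2 fold change of Gstm2 was 0.68 ± 0.40 (edgeR adjusted p = 0.455). Txnrd1 in IgG 2, the most deeply sequenced library, was at 211 CPM and the other IgG libraries at 188 to 194 CPM (0.739). The macrophage marker sum in IgG 1 was 208 CPM and that of the other IgG libraries 51.5 to 82.3 CPM (0.804). Without IgG 1 the 2 groups differed in that sum by 109 CPM, with a two-sided exact permutation p of 0.0635.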

How the results depend on the processing

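Gstm1 in 19 and Nqo1 in 20 other analyses kept their direction and stayed under an adjusted p of 0.05, and Gstp1 did so in 9 of 19. The members called higher were 2 in the main analysis and 1 with the melanoma or the macrophage covariate and without anti-Ang2 1, 2 and 3, and they ranged from 1 to 2 when 1 library was left out; the members called lower were 1 throughout. Members were not counted with the Gstm and Gstp rows summed. The replicate numbers of the titles, the only ones that both groups share since the descriptions number the mice without repeats, did not pair the libraries (correlations of the deviations -0.125 to 0.113, and 0 of the 5 numbers matched best with their own). With the number as a replicate block, 1 member was called higher (Gstm1 at 0.99, edgeR adjusted p = 0.0181) and Gstp1 lost its call (1.07, 0.0856), 82 genes were higher and 268 lower, and Gsta4 was at -0.20.

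Of all genes 217 were higher and 454 lower. The counts were 810 and 880 with DESeq2, 670 and 780 with limma-voom, 19 and 71 with the melanoma covariate, 44 and 162 with the macrophage covariate, 55 and 178 without anti-Ang2 1, 2 and 3, and 531 and 598 without anti-Ang2 4 and 5. They were 82 to 326 and 259 to 468 without 1 library. The melanoma marker sum differed by 3626 CPM, or by 2869 to 4470 CPM without 1 library, with p of 0.0794, 0.0794 and 0.0714 without IgG 1, 3 or 5. No setting moved the median of all genes past 0.03.

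Signs turned only in members that did not pass. Gstm2 was at -0.024 with the melanoma covariate. Gsta4 was at -0.33 with limma-voom, -0.14 with the macrophage covariate and -0.78 without anti-Ang2 4 and 5, and Gstt1 at -0.13 and -0.45 with the first and the last of these. Leaving out 1 library moved Gsta4 between -0.51 and 0.39, negative without anti-Ang2 4 or IgG 5, and Gstt1 between -0.15 and 0.415, negative without anti-Ang2 4 or 5 or IgG 1 or 5. The cause was not tested. Gsta4 rests on 8 to 109 counts per library.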
